A study of Mus musculus with 3 samples.

Results

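The Polycomb group genes described here are *Ezh1*, *Ezh2*, *Eed*, *Suz12*, *Ring1*, *Rnf2*, *Bmi1*, *Cbx2*, and *Phc1*, chosen by name as the core subunits of the 2 Polycomb repressive complexes, PRC1 and PRC2. All 9 were found among the 30854 gene symbols of the deposited table. RNA came from wild-type mouse embryos of the strain labelled Cd-1 at the early headfold (EHF) stage, when gastrulation has laid down the germ layers, and from their embryonic region after removal of the extraembryonic part. There were 3 Illumina bead arrays, labelled replicates 1, 2, and 3, and they form the only group, with no mutant, treatment, or second stage beside them. Whether an array holds a single embryo or a pool is not settled by the labels, so tests over arrays measure only the spread between these 3, while a detection p is computed within 1 array. Being RNA of whole tissue, a low signal from fewer expressing cells and one from less RNA per cell cannot be told apart.

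Polycomb proteins keep developmental genes silent. PRC2 methylates histone H3 at the mark called H3K27me3, through its catalytic subunit Ezh2 or the paralog Ezh1, held in an active complex by Eed and Suz12. PRC1 attaches ubiquitin to histone H2A through the RING finger proteins Ring1 and Rnf2 (also called Ring1b), which pair with a Pcgf protein such as Bmi1. In its canonical form it also holds a Cbx protein, which reads the H3K27 mark, and a Phc protein, which lets complexes cluster. Mouse embryos without *Ezh2*, *Eed*, *Suz12*, or *Rnf2* fail around gastrulation, whereas *Ring1* and *Bmi1* mutants survive to birth.

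The label was checked against marker genes. Of 13 markers of the embryonic region, 9 were called above background (a detection p under 0.01 on every array, which held for 20.6% of all symbols), among them *T* (Brachyury, of the primitive streak), *Otx2* (of anterior neural tissue), *Pou5f1*, and *Hoxb1*, with summed linear signals of 5224, 3951, and 3298 on replicates 1, 2, and 3, and *Msgn1* was not analysed here. *Sox2* missed the call on replicate 3, with a detection p of 0.0112, and *Foxa2*, *Hesx1*, and *Six3*, of the node and the anterior ectoderm, were neither called nor above background in the test of levels described below, though *Foxa2* passed on replicate 2 alone and *Six3* on replicate 1 alone. The sample also held transcripts of visceral endoderm, the outer layer that takes part in the gut endoderm. Of its 14 markers 13 were called, all but *Afp*, their summed signal was 15279, 16322, and 7836, and *Spink3* had the highest mean of the deposited signals, though not the highest signal on replicate 3. At headfold stages the study saw *Apoc2*, among the called markers, only in extraembryonic visceral endoderm by in situ hybridization. Whether any of that tissue remained in these samples was not tested. Of 10 extraembryonic ectoderm markers 5 were called, with summed signals of 3396, 3182, and 1995 and the highest mean signal from *Cdx2*, also a gene of the posterior embryo, though not on replicate 2, while *Elf5*, *Eomes*, *Ascl2*, *Gcm1*, and *Esrrb* were not. Of 6 markers of primitive blood only *Tal1* was called, with summed signals of 615, 571, and 533, and the embryonic globins *Hbb-bh1* and *Hba-x* were not. All these sums were taken without subtracting background, so they grow with the length of a list and cannot be compared between lists. The 14 Polycomb targets described below, none called on every array, summed to 1312, 1255, and 1168. The part of these other tissues in the Polycomb signals was not tested.

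A gene was called above background where its detection p, the share of negative-control probes at least as bright, was under 0.01 on every array. This held for 4 of the 9 genes, *Eed*, *Bmi1*, *Cbx2*, and *Phc1*, where 20.6% of all symbols were called. The other rule was a test of the level itself. The signal was background-corrected and quantile normalized on the log2 scale, the background level of its own array was subtracted, and limma asked, one-sided, whether the difference exceeded 0, with Benjamini-Hochberg adjustment over all symbols and a threshold of 0.05. By this test 7 of the 9 genes lay above background, *Ezh2*, *Suz12*, and *Ring1* being added, where 25.7% of all symbols did. Only *Ezh1* and *Rnf2* failed both. The standard error in this fit was 0.15 for every gene, because limma estimated infinite prior degrees of freedom and used 1 pooled variance for all symbols, so the largest adjusted p over the other settings tried is given beside the level of each of the 7 genes. Probes hybridize with different strength, so the order of signals of different genes is not an order of their transcripts. The share of all symbols called was 24.7% with a detection p under 0.05 and 17.0% with one under 0.001. It was 25.6% if 2 arrays sufficed, 33.0% if a single array did, and 26.3% where the mean signal had to lie above the background level on every array. By detection p it was 21.1%, 21.6%, and 24.1% without replicate 1, 2, or 3.

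**Figure D1:**
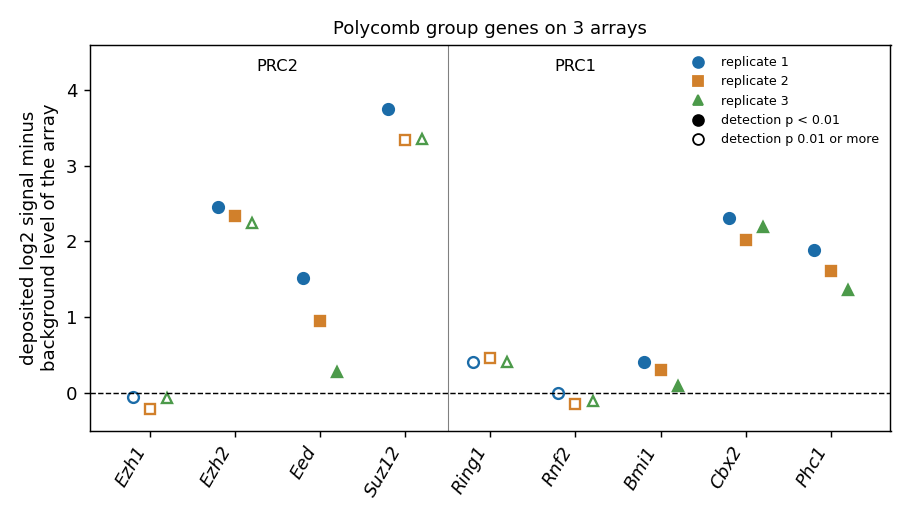
Deposited log2 signal of the 9 genes minus the background level of the same array (vertical axis, log2), 1 point for each of the 3 arrays, filled where the detection p is under 0.01. *Ezh2*, *Suz12*, and *Ring1* have hollow points above the dashed background line, while *Ezh1* and *Rnf2* lie below it on all 3 arrays.

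The catalytic subunits of PRC2 were split in the limma test only, and neither was called by detection p. *Ezh2*, the form that predominates in dividing cells, had deposited log2 signals of 9.14, 8.99, and 8.82 on replicates 1, 2, and 3. These lay 2.45, 2.34, and 2.24 above the background level of each array, a distance larger than the differences between arrays. The normalized level was 3.91 above background (SE 0.15, n = 3), with single arrays at 3.93, 3.89, and 3.91, and the largest adjusted p of limma over 9 other settings was 0.000117. Its detection p was nonetheless 0.00155, 0.00199, and 0.0194, so replicate 3 missed the threshold.

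*Ezh1*, the paralog better known from resting cells, had signals of 6.63, 6.45, and 6.51, below the background level of every array. Its detection p was 0.0139, 0.599, and 0.0435, and its normalized level was -0.34 relative to background (SE 0.15, n = 3, adjusted p = 1.00). It was inferred to have at least 2 probes, and neither rule nor any other setting placed it above background. If there were 2, their p-values summed to 0.167, 1.10, and 0.295. On replicates 1 and 3 this leaves room for 1 probe under 0.01. On replicate 2 a sum above 1 leaves neither probe under 0.01, so neither could be called on every array. Each gene was set against background, and no ratio of the 2 transcripts was taken.

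Because these paralogs differed in the limma test, the 300 bases around their annotated starts are shown, from 250 bases before to 50 after, 5′ to 3′ (RefSeq, GRCm38.p6). Both genes lie on the minus strand, *Ezh2* at chr6:47594981-47595280 and *Ezh1* at chr11:101226414-101226713. Capitals mark TTTGGCGC, a form of the site bound by E2F factors, which act on genes of the dividing cell. The letters were looked for on both strands, the reverse being GCGCCAAA, and were chosen with the *Ezh2* sequence in view.
Ezh2: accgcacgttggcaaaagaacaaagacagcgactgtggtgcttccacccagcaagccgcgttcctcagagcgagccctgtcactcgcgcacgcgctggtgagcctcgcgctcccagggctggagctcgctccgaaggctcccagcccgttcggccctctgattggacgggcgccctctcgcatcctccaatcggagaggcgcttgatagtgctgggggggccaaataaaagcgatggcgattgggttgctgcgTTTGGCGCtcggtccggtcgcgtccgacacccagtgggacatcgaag
Ezh1: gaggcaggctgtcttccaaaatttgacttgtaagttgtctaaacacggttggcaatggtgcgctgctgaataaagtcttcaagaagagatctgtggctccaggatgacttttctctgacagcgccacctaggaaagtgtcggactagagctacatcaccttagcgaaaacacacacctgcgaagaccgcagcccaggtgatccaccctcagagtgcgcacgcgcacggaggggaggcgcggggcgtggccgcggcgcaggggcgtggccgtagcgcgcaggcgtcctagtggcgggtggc
The *Ezh2* sequence holds the letters once, at bases 254 to 261, and *Ezh1* does not hold them. They occur in 0.514% of 32851 RefSeq promoter sequences of the same length, and in 1 of the 8 found for the genes described here (none was matched for *Cbx2*). Both sequences are rich in CpG, with 31 in *Ezh2* and 23 in *Ezh1*, against a median of 7 over all of them. No binding was measured, and a match of letters is not a site.

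*Suz12*, the zinc finger subunit that PRC2 needs for its stability, was bright on every array. Its deposited log2 signals were 10.43, 9.997, and 9.93, or 3.75, 3.34, and 3.35 above background, and its normalized level was 5.16 above background (SE 0.15, n = 3), with 0.000132 as the largest adjusted p over 9 other settings. The distance from background exceeded the spread between arrays (SD 0.27 for the deposited signal). Even so the detection p was 3.65e-05, 0.0132, and 0.0432, and the gene had no call on replicates 2 and 3.

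*Eed*, which binds the methylated tail of histone H3 and stimulates the enzyme, was called on all arrays with a detection p of 0 on each. Its signals were 8.21, 7.60, and 6.86, from 25, 30, and 34 beads, with replicate 1 high and replicate 3 low. They lay 1.52, 0.94, and 0.28 above the background of their arrays. The normalized level was 1.91 above background (SE 0.15, n = 3), with arrays at 2.80, 2.05, and 0.88 and a largest adjusted p of 0.0374, with median scaling. Of the 9 genes it was the one whose arrays agreed least.

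In PRC1, the pair of ubiquitin ligases gave no call by detection p. *Rnf2* had signals of 6.68, 6.51, and 6.48 from what was inferred to be 1 probe, with a detection p of 0.0118, 0.231, and 0.105. Relative to background these were -0.01, -0.14, and -0.10, all below it, and the normalized level was -0.31 (SE 0.15, n = 3, adjusted p = 1.00). No signal was detectable for *Rnf2*, which says nothing of a level below background.

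*Ring1* had signals of 7.09, 7.12, and 6.99, which lay 0.40, 0.47, and 0.41 above background. Between arrays the SD was 0.07 for the deposited signal but 0.33 after quantile normalization, before background was subtracted. The normalized level of *Ring1* was 1.13 (SE 0.15, n = 3), and the largest adjusted p of limma over 8 other settings was 0.00169. The detection p of 0.303, 0.0395, and 0.288 passed on no array.

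*Bmi1*, the Pcgf partner first known as a cooperating oncogene, was called on all arrays with a detection p of 0. Its signals of 7.09, 6.96, and 6.67 were only 0.40, 0.30, and 0.09 above background, so replicate 3 was close to the limit. The normalized level was 0.71 (SE 0.15, n = 3, adjusted p = 5.33e-06), and the largest adjusted p was 0.0439, with median scaling.

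*Cbx2*, which brings canonical PRC1 to methylated chromatin and compacts it, had signals of 8.997, 8.67, and 8.77, or 2.31, 2.02, and 2.19 above background, and all detection p were 0. Its normalized level was 3.71 above background (SE 0.15, n = 3), with a largest adjusted p of 0.000134. *Phc1*, the polyhomeotic subunit, had signals of 8.57, 8.27, and 7.94, or 1.88, 1.61, and 1.36 above background, and its detection p stayed at or below 0.00168 on all arrays. Its level was 3.02 above background (SE 0.15, n = 3), with a largest adjusted p of 0.000563. For both genes every array was high and the distance from background exceeded the spread between arrays.

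The 3 genes above background by limma alone were each measured by several probes. The table gives a mean over the probes of a symbol, and for several probes a combined detection p computed from the sum of their p-values. Bead numbers and steps of the detection p gave 3 probes for *Ezh2* and *Phc1*, 2 for *Ezh1*, *Suz12*, and *Ring1*, and 1 for the other 4 genes, as lower limits. The brightest probe of a symbol cannot be dimmer than the mean, and no symbol with 1 probe and a signal above 6.69, 6.66, and 6.58 on replicates 1, 2, and 3 had a detection p of 0.01 or more. At least 1 probe of *Ezh2*, *Suz12*, and *Ring1* was therefore above background on every array.

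The same sums bound the weakest probe, provided that these probe numbers are exact and not only lower limits. For *Ring1* the p-values of both probes summed to 0.779, 0.281, and 0.759, so that with 1 probe under 0.01 the other was at least at 0.769, 0.271, and 0.749. For *Suz12* the sums were 0.00855, 0.162, and 0.294, which puts both probes under 0.01 on replicate 1 and 1 of them at no less than 0.152 and 0.284 on replicates 2 and 3. For *Ezh2* the weakest of 3 probes was at least at 0.100, 0.109, and 0.239. On at least 2 of the 3 arrays each of these genes thus had a probe that passed the threshold and a probe that did not. The called gene *Phc1*, with 3 probes, had the same on replicates 2 and 3, its weakest probe being at least at 0.0548 and 0.103. Over the whole table, 1887 symbols with 2 probes had a mean signal above background on every array, and 879 of them had no call. Of symbols with 1 probe 4589 had such a signal and 0 of them had no call, by construction of the background level.

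Replicate 1 was the brightest array as a whole and replicate 3 the dimmest, and the Polycomb genes showed the same order. The median deposited log2 signal of called symbols was 8.02, 7.83, and 7.50 on replicates 1, 2, and 3, and 9015, 8220, and 7191 symbols had a detection p under 0.01. Of the 9 genes 8 were highest on replicate 1 and 7 lowest on replicate 3 in the deposited signals. After quantile normalization, before background was subtracted, 3 genes were highest on replicate 1, 1 on replicate 2, and 5 on replicate 3, and 2, 5, and 2 were lowest on them. In the normalized levels above background 7 were highest on replicate 1 and 2 on replicate 3, while 1, 4, and 4 were lowest on replicates 1, 2, and 3. Which array was highest for a gene therefore changed with the scaling, and no difference between replicates of a single group was tested.

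The spread between arrays was taken from the quantile-normalized values before background was subtracted. Those of *Eed* deviated from their mean by 0.72, 0.10, and -0.82, high on replicate 1 and low on replicate 3. Their SD was 0.77, where the median was 0.21 over the 9 genes and 0.17 over all called symbols. Of the 6357 called symbols 11 had a larger SD. The other 8 genes had SDs between 0.05 for *Phc1* and 0.33 for *Ring1*. Of the levels above background the SD was 0.97 for *Eed* and between 0.02 for *Ezh2* and 0.33 for *Bmi1* for the others, and in these levels *Rnf2*, *Bmi1*, and *Phc1* were also highest on replicate 1 and lowest on replicate 3. Without background correction the SD of *Eed* was 0.45 against a median of 0.11 for called symbols, and with median scaling 1.07 against 0.33. The summed signal of visceral endoderm markers was lowest on replicate 3 too, but highest on replicate 2, and its part in the spread of *Eed* was not tested.

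**Figure D2:**
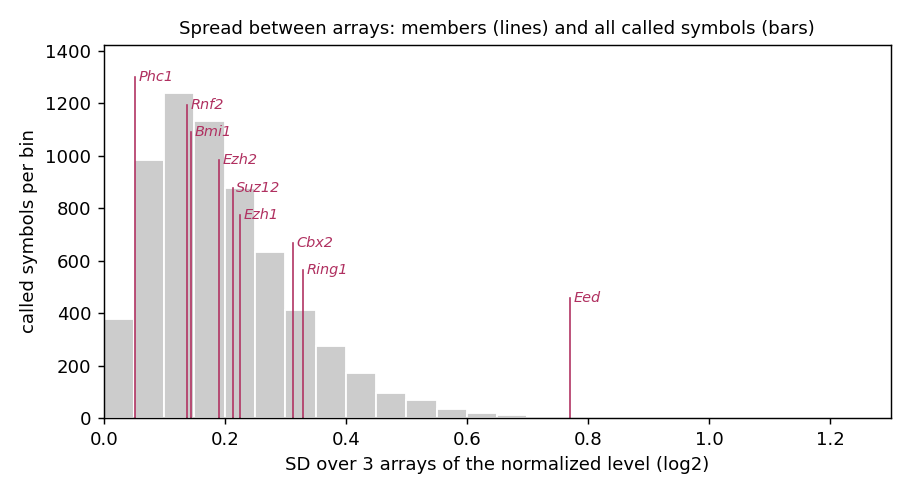
SD over the 3 arrays of the normalized log2 level before background was subtracted (horizontal axis) for all 6357 called symbols, as the number of symbols per bin of 0.05 (grey bars, vertical axis), with a line for each of the 9 genes. *Eed* at 0.77 stands to the right of nearly all called symbols, and the others lie between 0.05 and 0.33.

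The further subunits of PRC2 were taken as 8 genes. By detection p 3 were called and by limma 5, against 20.6% and 25.7% of all symbols. *Rbbp7*, a histone-binding subunit, had signals of 9.95, 9.97, and 9.44. *Epop*, listed under its older symbol *E130012A19Rik* and known from pluripotent cells, had 9.57, 9.15, and 9.19. *Mtf2*, a Polycomb-like protein that guides PRC2 to CpG islands, had 9.48, 9.10, and 8.49. All 3 were above background on every array.

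*Rbbp4* and *Aebp2*, added by limma, have at least 4 and 7 probes. Signals of *Rbbp4*, a paralog of *Rbbp7*, were 7.43, 7.28, and 6.92 with a detection p of 0.00160, 0.00615, and 0.0187. *Aebp2*, a zinc finger cofactor, had 7.24, 7.14, and 7.03 with 0.0303, 0.00298, and 0.0870. *Phf19*, *Phf1*, and *Jarid2* were not above background by either rule, with a median detection p of 0.255, 0.480, and 0.557.

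Of the partners in canonical PRC1, 2 of 8 were called by detection p and 3 of 8 by limma, beside 20.6% and 25.7% of all symbols. *Phc2*, a paralog of *Phc1*, had signals of 9.51, 9.53, and 9.30. *Cbx7*, a reader of H3K27 methylation known from stem cells, had 7.51, 7.23, and 7.27. Both had a detection p of 0 on every array. *Phc3* was near background, with 6.48, 6.50, and 6.38, so of the 3 polyhomeotic genes *Phc1* and *Phc2* were called.

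Among the Cbx genes analysed here, *Cbx2* and *Cbx7* were called. *Cbx8* had a detection p of 0.00214 and 0.00748 on replicates 1 and 2 and 0.456 on replicate 3. *Cbx6*, with 2 probes, was above background by limma (level 0.64, SE 0.15, n = 3, adjusted p = 5.12e-05) but reached an adjusted p of 0.0804 with median scaling. *Pcgf2*, the closest paralog of *Bmi1*, passed on replicate 2 alone, with a detection p of 0.104, 0.00107, and 0.0192. *Scml2*, related to Sex comb on midleg, was not above background by either rule. Its relative *Scmh1*, with 2 probes, had a mean signal above background on all arrays, by 0.18, 0.08, and 0.05, but missed the limma threshold (adjusted p = 0.0804, down to 0.00546 in another setting).

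Variant PRC1, in which Rybp or Yaf2 takes the place of a Cbx protein, was covered by 14 of 15 genes, *Fbrs* not being analysed. By detection p 7 of 14 were called and by limma 12, beside 20.6% and 25.7% of all symbols. All 4 Pcgf genes of these complexes were called, and each had a detection p of 0 on every array. *Pcgf5* had signals of 9.93, 10.48, and 9.37, *Pcgf6* 9.19, 8.97, and 8.44, *Pcgf1* 9.11, 9.07, and 8.38, and *Pcgf3* 7.82, 7.57, and 7.40. Each lay above background on every array, and replicate 3 was the lowest for all 4.

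*Rybp*, the adaptor that excludes Cbx proteins, had signals of 9.03, 8.99, and 8.63 and was called with its paralog *Yaf2* (7.38, 7.27, and 6.77) and with *L3mbtl2* (7.20, 6.78, and 6.82), whose largest adjusted p in limma was 0.04996. *Kdm2b*, under the symbol *Fbxl10*, brings a Pcgf1 complex to CpG islands. It had 7.80, 7.36, and 7.19, and missed the call on replicate 2 by a detection p of 0.0106. *Bcor*, a corepressor of the Pcgf1 complex, had 7.33, 7.08, and 7.01 and failed on replicate 2 (0.132). *E2f6*, the repressor of the Pcgf6 complex, had 9.04, 8.89, and 8.23 and failed on replicate 2 as well (0.0189). These 3 and *Auts2* and *Fbrsl1* were above background by limma and not by detection p, and all of them have several probes. *Bcorl1* and *Mga* were not above background by either rule, though *Bcorl1* passed the detection threshold on replicate 1 alone, with a detection p of 0.000386.

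**Figure D3:**
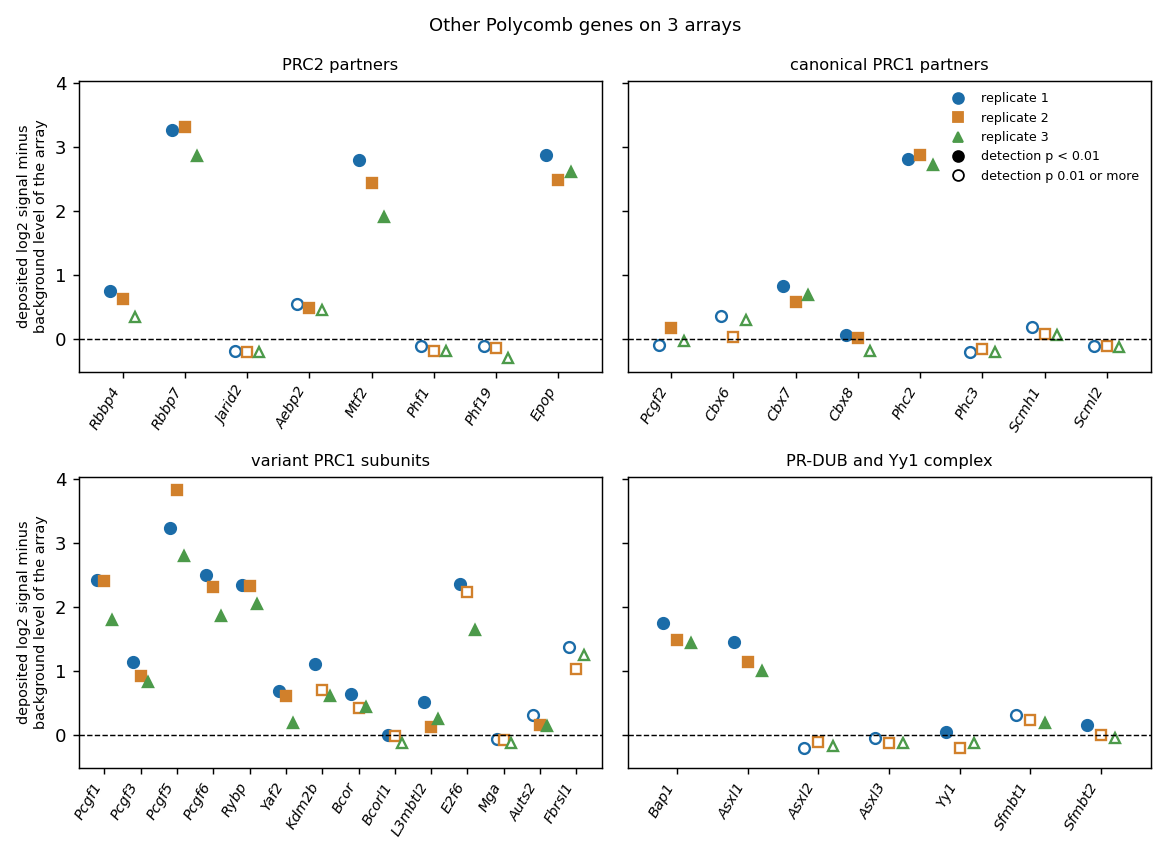
Deposited log2 signal minus the background level of the same array (vertical axes, log2) for 37 further Polycomb genes in 4 lists, 1 point per array, filled where the detection p is under 0.01. The 4 Pcgf genes of variant PRC1 lie above the dashed background line on all 3 arrays, whereas *Pcgf2*, *Phc3*, *Jarid2*, and *Yy1* lie at or near it.

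The deubiquitinase that removes ubiquitin from H2A, PR-DUB, and the Yy1 complex were covered by 7 genes, of which 2 were called by detection p and 3 by limma, beside 20.6% and 25.7% of all symbols. *Bap1*, the enzyme, had signals of 8.43, 8.14, and 8.01, and *Asxl1*, its cofactor, 8.13, 7.80, and 7.58. *Sfmbt1* had 6.99, 6.88, and 6.77 and was above background by limma alone (level 0.68, SE 0.15, n = 3, adjusted p = 1.20e-05, at most 0.00531 in other settings). Its paralog *Sfmbt2* had 6.84, 6.65, and 6.53 and passed the detection threshold on replicate 1 only. *Yy1*, a DNA-binding factor found in most cells, had 6.73, 6.45, and 6.45 from 1 probe and also passed on replicate 1 only, while *Asxl2* and *Asxl3* passed on none. Over these 4 lists together 14 of 37 genes were called by detection p (20.6% of all symbols) and 23 by limma (25.7%), and all 9 genes that limma added have several probes. That follows largely from setting the background level on symbols with 1 probe.

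Genes that oppose Polycomb were measured as well. Of 4 genes that erase its marks 2 were called by detection p (20.6% of all symbols) and 4 by limma (25.7%). *Usp16*, an H2A deubiquitinase, had signals of 8.95, 8.92, and 8.40, and *Kdm6b* (*Jmjd3*), an H3K27 demethylase, 7.12, 7.15, and 7.07. *Kdm6a* (*Utx*), its paralog, had 8.79, 8.03, and 7.77 with at least 4 probes, and passed the detection threshold on replicate 1 only. *Mysm1*, an H2A deubiquitinase, had 7.13, 7.07, and 6.86 and passed on no array.

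The trithorax group and its partners, which methylate H3 at active genes, gave 5 of 13 genes by detection p and 12 by limma, where 20.6% and 25.7% of all symbols passed. *Dpy30*, a subunit shared by these complexes, had signals of 10.67, 10.28, and 9.38. *Kmt2d*, listed as *C430014K11Rik*, had 8.63, 8.45, and 8.41, and *Setd1b* 8.71, 8.41, and 7.87. *Setd1a* and *Wdr5* were the other two called. *Kmt2a* (*Mll1*), the founding member of the family, had 8.67, 8.34, and 8.23 and missed the call on replicate 3 with a detection p of 0.0104. *Cxxc1*, which binds unmethylated CpG, had 10.12, 9.94, and 9.71, and *Ash2l* 8.51, 8.31, and 7.82, with 0.0582 and 0.174 on replicate 3. Without replicate 3, these 3 passed as well and 8 trithorax genes were called, beside 24.1% of all symbols. Of the 13 genes *Ash1l* was not above background by limma.

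Textbook targets of Polycomb were at background. The list held the cell cycle inhibitors *Cdkn2a* and *Cdkn2b* and 12 posterior Hox genes, which pattern later and more caudal structures. By detection p 0 of 14 were called (20.6% of all symbols) and by limma 0 (25.7%), with 0 at an unadjusted p under 0.05 in limma and 0 with a detection p under 0.05 on all arrays (24.7%). *Hoxd10* alone passed on an array, replicate 1, with a detection p of 0.00748, and had 0.0310 and 0.763 on the others. Signals of *Cdkn2a* were 6.48, 6.46, and 6.45 and those of *Hoxc12* were 6.66, 6.51, and 6.48. *Hoxd11* had 6.44, 6.55, and 6.52, and none of these 3 genes lay above background on any array. The median level of the 14 genes was -0.52 relative to background, where that of all symbols was -0.46. Apart from *Hoxd10* on replicate 1, genes of this list were thus not detectable on these arrays, which limits their signal and does not show that they were repressed.

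**Figure D4:**
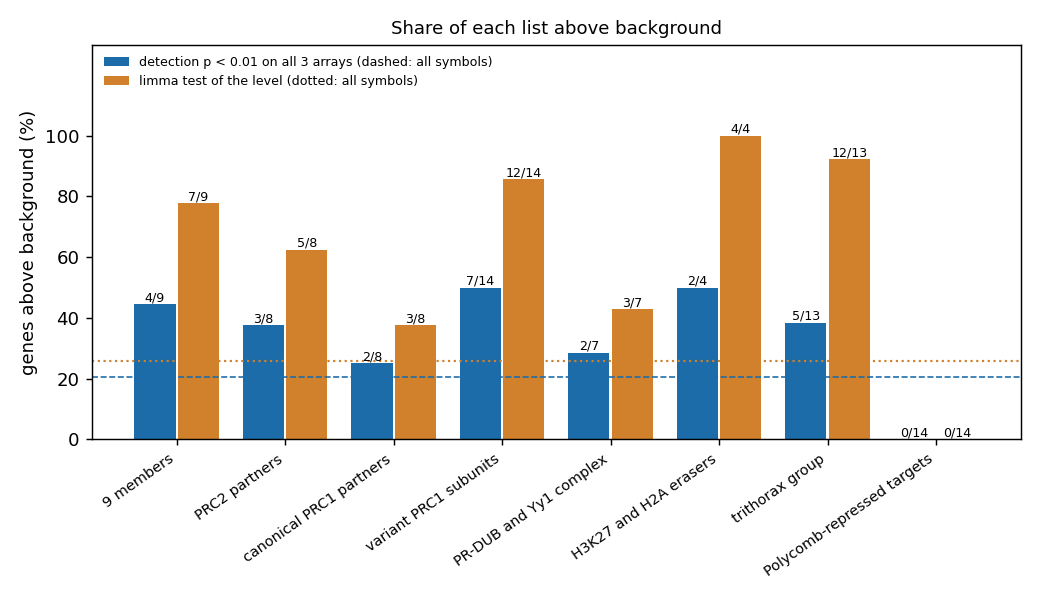
Share of genes above background (vertical axis, %) in the 9 Polycomb genes and 7 other lists, by detection p on all 3 arrays (blue) and by the limma test of the level (orange), with counts above the bars and the shares of all symbols, 20.6% and 25.7%, as lines. The 9 genes reach 4 of 9 and 7 of 9, the trithorax group 5 of 13 and 12 of 13, and the Polycomb targets 0 of 14 by both rules.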

How the data were processed

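Biotin-labelled cRNA was hybridized to Illumina Mouse-6 arrays, and arrays were mapped to replicates from the labels. The authors deposited log2 signals averaged over the probes of each symbol and not normalized between arrays, with the mean number of beads, its standard error over beads (not used here), and a detection p-value. The submitters' processing notes name Partek, and whether background was subtracted is not given in the sources used here. A background cut-off stated by the study was not used.

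The number of probes was the smallest that made the bead means whole (tolerance 0.02) and, up to 3 probes, placed the detection p on the steps of a sum of p-values in units of 1 in 936 (tolerance 0.03 of a step). Each background level was the dimmest signal, among symbols inferred to have a single probe, whose detection p was under 0.01 but not 0. For levels, normexp was fitted on symbols with 1 probe, with an offset of 16, before quantile normalization. limma (lmFit, eBayes, one-sided) ran on 30854 symbols and was tested on simulated data. In those data symbols without added signal were centred below the background level, so false calls for genes at that level were not tested.

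The members and lists were chosen with earlier results of these data known. All 9 genes and, in each other list, the 3 called genes of highest signal and the 3 uncalled with the lowest median detection p were to be named, with others added after their values were seen. One result is not reported here. Of 113 list genes 111 were matched, 10 by an older symbol in the RefSeq table of GRCm38.p6. Detection p combined over probes and signals averaged over them limit what a symbol shows, and 3 arrays limit the precision. Python 3.11.15, R 4.3.3, and limma 3.58.1 were used.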

Additional observations from a re-analysis of the deposited data

How the results depend on the processing

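The count of 4 Polycomb genes called became 7 in the limma test and 7 where the mean signal had to lie above the background level on all arrays, a rule added after seeing the data. It was 3 to 6 in the other settings (17.0% to 33.0% of all symbols) and 4 to 5 without a replicate (21.1% to 24.1%), *Ezh2* being added without replicate 3. The limma count of 7 was 6 to 7 over 9 settings and 7 without any replicate. *Ring1* was not tested among symbols detected on at least 1 array, which it did not enter. Median scaling and no scaling give the same levels above background by construction. None of the 9 levels changed sign, while those of *Pcgf2*, *Cbx8*, *Sfmbt2*, and *Esrrb* did. The size of the levels depended on the background correction, and the 7 levels above background were lower without it. *Ezh2* then stood at 2.33 against 3.91, *Suz12* at 3.46 against 5.16, and *Eed* at 0.88 against 1.91. *Ring1* stood at 0.43 against 1.13, *Bmi1* at 0.25 against 0.71, *Cbx2* at 2.17 against 3.71, and *Phc1* at 1.60 against 3.02. At least 1 setting lost the limma call of *Cbx6*, *Mesp1*, *Mixl1*, and *Afp*, and at least 1 gave *Scmh1* a call. The median SD of 0.21 was 0.15 to 0.19 with other scalings. For the 37 further Polycomb genes, 14 calls became 26 with detection on at least 1 array, 23 by limma, and 24 with the mean signal above background, and were 15 to 17 without a replicate. For the 17 opposing genes, 7 became 13, 16, and 16 in the same settings and 7 to 10 without a replicate. For the 14 targets, 0 became 1 on at least 1 array and was 0 to 0 without a replicate. Detection on at least 1 array asks less by construction. Among the 9 Polycomb genes, the 37 further ones, and the 17 opposing ones, the gain by limma lay in symbols with several probes. This is largely by construction, because the background level was set on symbols with 1 probe. For these a signal above background and a call nearly coincide. *Afp*, among the tissue markers, was gained by limma with 1 probe. Beyond that the cause was not tested. No paired analysis was possible because all arrays belong to the same group.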

Other observations

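Some of the listed genes have a second row under an older symbol, 13 such rows for 12 genes. *Mysm1*, an H2A deubiquitinase, was not called by detection p (0.298, 0.188, and 0.105), while its older symbol *C130067A03Rik* had a detection p of 0.00107, 0.00107, and 0.178. *Dpy30* was called under its own symbol and also as *2810410M20Rik*, with signals of 11.17, 10.84, and 10.46. None of the other 12 rows was called on all 3 arrays.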
